A study of Mus musculus with 6 samples.

Results

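The first assembled 2 Mb next to the centromere of each mouse autosome (mm9 positions 3000001 to 5000000) were examined for CpG methylation in 3 embryonic stem cell lines. Members were the autosomal CpG sites of that stretch with at least 5 reads in every line and at most 45, 40 and 80 reads in the DNMT3A2, DNMT3B1 and SETD2 knockout lines. The windows chr9:3000001-3040000 and chr11:3080001-3100000 were left out. This gave 96470 sites on 19 autosomes, of 306428 sites in the stretch, 7047521 autosomal sites compared and 20782144 sites in the series. No site was chosen by its methylation. The stretch is called the centromeric end below, and 10 to 20 Mb of the same autosomes, with 338188 sites compared, is called the interior.

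All 3 lines derive from embryonic stem cells null for DNMT1, DNMT3A and DNMT3B, grown on feeder cells or gelatine. 1 line expressed DNMT3A2, 1 expressed DNMT3B1, and 1 expressed DNMT3B1 and lacked SETD2 as well. Methylation was read by whole-genome bisulfite sequencing, in which a C that survives conversion at a CpG counts as methylated. Each line had 2 sequencing runs in the labels but 1 set of deposited values, and the labels name no separate cultures, so each line was treated as 1 library and a difference between lines is a difference between 3 libraries. Methylation reads cannot check the loss of SETD2, and that label was taken as given. No p-value between lines was computed.

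Mouse chromosomes carry their centromere at one tip. The centromere consists of minor satellite arrays flanked by pericentromeric major satellite arrays, which the assembly leaves largely as a gap. The repeat content of the first assembled bases was not checked here. DNMT3B is known for methylating pericentromeric satellites, and loss of its activity in people causes the ICF syndrome, in which those satellites lose methylation. DNMT3A2 is the short form of DNMT3A that stem cells express, and DNMT3B1 is the full-length catalytic form of DNMT3B. SETD2 writes H3K36me3 over transcribed gene bodies, a mark that the PWWP domain of DNMT3B binds. The satellite arrays within the gap lie outside the stretch measured here.

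The ends carried less methylation than the interior in all 3 lines. Pooled over sites, the DNMT3A2 line had 6.14% methylated reads in the ends (exact 95% interval 6.10 to 6.19) against 7.00% in the interior. The DNMT3B1 line had 2.36% (2.33 to 2.38) against 2.71%. The SETD2 knockout line had 5.04% (5.0 to 5.07) against 5.81%. The order of the lines was the same in both places, with DNMT3A2 highest and DNMT3B1 lowest. The DNMT3A2 level was 2.61 times the DNMT3B1 level in the ends and 2.59 times in the interior. The knockout level was 2.14 times the DNMT3B1 level in the ends and 2.15 times in the interior. These binomial intervals cover counting error only. They rest on 1302959, 1255425 and 1875047 reads in the ends.

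The ends are a little richer in CpGs than the interior, and in these cells dense CpG sites carry little methylation. The median site had 13 CpGs within 500 bp on each side in the ends and 11 in the interior, itself included. Each end was therefore compared with the level expected from the interior of the same autosome at the same local density, in 10 bins. The result is given as the log2 ratio of observed to expected, averaged over the 19 autosomes with equal weight. Its SD and 95% interval describe the spread between autosomes, not between cultures.

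At matched density the mean over autosomes was below 0 in all 3 lines. The mean log2 ratio was -0.21 in the DNMT3A2 line (SD 0.36, n = 19 autosomes, 95% interval -0.38 to -0.03), a level 0.867 times that expected. It was -0.14 in the DNMT3B1 line (SD 0.26, n = 19, -0.27 to -0.02), or 0.905 times. It was -0.10 in the knockout line (SD 0.13, n = 19, -0.16 to -0.04), or 0.933 times. The end lay below expected on 14, 13 and 17 of the 19 autosomes, and 11 autosomes were below in all 3 lines. With a coverage maximum of 2 times the median, DNMT3B1 stood at -0.04 (-0.14 to 0.05), DNMT3A2 at -0.14 (-0.28 to 0.00) and the knockout at -0.09 (-0.14 to -0.04), so the first 2 intervals reached 0. The size also depended on how autosomes are weighted. Pooled over sites with each autosome's own interior as reference, the log2 ratios were -0.02, -0.05 and -0.09. In that pooling chromosomes 11 and 19 hold 17.6% and 13.5% of the sites compared, and 23.9% and 13.5% of the DNMT3A2 reads.

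Over all sites compared, the interval of each difference between lines in this ratio included 0. The DNMT3B1 ratio exceeded the DNMT3A2 ratio by 0.06 on the log2 scale (SD 0.22, n = 19, 95% interval -0.04 to 0.17). The knockout ratio exceeded the DNMT3B1 ratio by 0.04 (SD 0.25, n = 19, -0.08 to 0.17) and the DNMT3A2 ratio by 0.11 (SD 0.31, n = 19, -0.04 to 0.25). Alternative settings moved these values both ways. Leaving out the 140 end windows of raised coverage kept 26281 of the 96470 end sites. In those, DNMT3B1 exceeded DNMT3A2 by 0.25 (0.10 to 0.40) and the knockout exceeded DNMT3A2 by 0.19 (0.06 to 0.33). The DNMT3B1 line itself stood there at -0.04 (-0.23 to 0.14) against its interior. Against the whole autosome beyond the end, the knockout exceeded DNMT3A2 by 0.14 (0.00 to 0.28). The 3 contrasts share libraries and are not independent. Pooled over sites, both knockout contrasts turned negative, at -0.04 (-0.07 to -0.01) against DNMT3B1 and -0.06 (-0.09 to -0.04) against DNMT3A2. Without chromosome 11 that last value was -0.03 (-0.06 to 0.00).

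**Figure D1:**
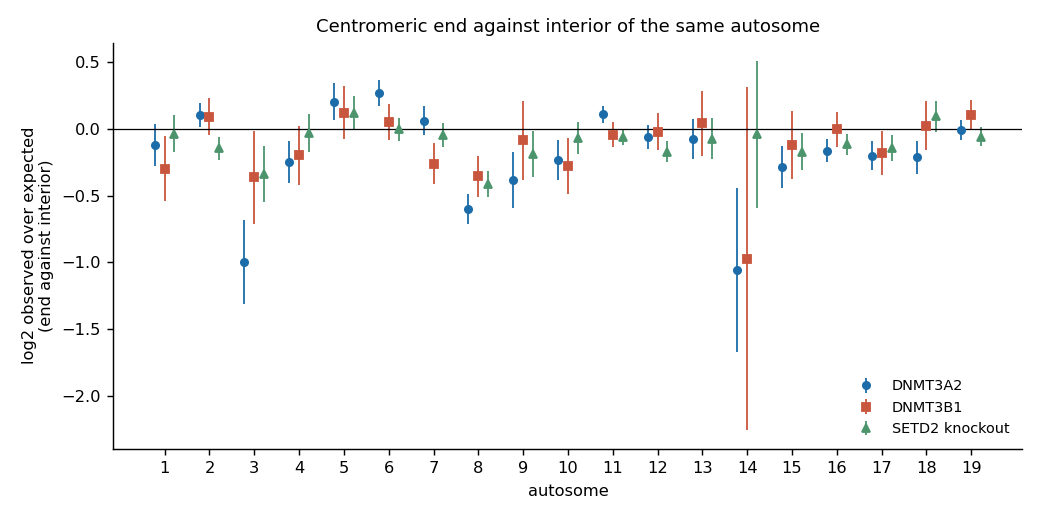
Log2 ratio of the methylation level observed in the centromeric end to that expected from 10 to 20 Mb of the same autosome at matched CpG density (y axis), for each autosome (x axis) and line (symbols). Bars are 95% intervals over 500 bp clusters of CpGs; 11 autosomes lie below 0 in all 3 lines, and chromosomes 14 and 3 lie lowest in the DNMT3A2 line.

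Autosomes differed most in the DNMT3A2 line. Its levels in the ends ran from 2.96% on chromosome 14 through a median of 6.05% to 7.71% on chromosome 6, against 3.91% to 8.65% in the interiors. The DNMT3B1 levels in the ends ran from 1.20% to 2.95% (median 2.53%) and the knockout levels from 3.78% to 6.76% (median 5.27%). DNMT3B1 was below DNMT3A2 in the end of every one of the 19 autosomes, and the knockout was above DNMT3B1 in all 19. The knockout exceeded DNMT3A2 in the end of 5 autosomes and in the interior of 1.

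The lowest ends were those of chromosomes 14, 3 and 8. The log2 ratio of chromosome 14 was -1.06 for DNMT3A2 (95% interval -1.67 to -0.45), -0.97 for DNMT3B1 (-2.26 to 0.31) and -0.04 for the knockout. That end is nearly empty of data, with 103 sites compared and 91.5% of its CpGs without a read in the DNMT3A2 and DNMT3B1 lines. Without chromosome 14 the mean ratios were -0.16, -0.10 and -0.10, with intervals that all stayed below 0. Chromosome 3, with 854 sites, stood at -1.0 for DNMT3A2 (-1.31 to -0.69), -0.36 for DNMT3B1 and -0.34 for the knockout. Chromosome 8, with 5046 sites, stood at -0.60, -0.36 and -0.41 and was the lowest of all in the knockout line. After chromosomes 8 and 3, the lowest in the knockout line was chromosome 9, at -0.19.

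A few ends were above their interior. Chromosome 6 reached 0.27 for DNMT3A2 (95% interval 0.17 to 0.36), with 7.71% in the end against 5.75% in the interior, but it stood at 0.05 for DNMT3B1 and at 0.00 for the knockout. Chromosome 5 alone was above expected in all 3 lines, at 0.20, 0.12 and 0.12. Chromosome 11, the best covered end, was at 0.11 for DNMT3A2 and below 0 in the others, at -0.04 and -0.06. The highest ratios in the DNMT3B1 line after chromosome 5 were 0.11 on chromosome 19 and 0.09 on chromosome 2. In the knockout line chromosome 18 followed chromosome 5, at 0.09.

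Read coverage moved with these differences. In the DNMT3A2 line, 11 autosomes had lower coverage in the end than in the interior and none of them was above expected in methylation. Of the 8 with higher coverage, 5 were above expected. Over the 19 autosomes the log2 coverage ratio and the log2 methylation ratio had a Spearman correlation of 0.81 for DNMT3A2, 0.49 for DNMT3B1 and 0.39 for the knockout. Without chromosome 14 the values were 0.78, 0.40 and 0.52 (n = 18). Chromosome 8 is an example, with a relative coverage of 0.86 in the end and 1.38 in the interior of the DNMT3A2 library. A relative coverage of 1 is the mean of autosomal sites outside the ends at the same CpG density. Chromosome 11 had 1.78 and 1.12. Within the ends, the 99 windows of 100 kb with the lowest DNMT3A2 coverage had a median log2 ratio of -0.43, the middle 99 had -0.28 and the 99 best covered had -0.12. The relation was not particular to the ends. For this comparison coverage was the mean reads per site of a window, not matched on CpG density. Across the 18632 other autosomal windows its Spearman correlation with the DNMT3A2 ratio was 0.37, against 0.32 in the 297 end windows. For DNMT3B1 that correlation was 0.19 and 0.09, and for the knockout 0.08 and 0.05. Neighbouring windows share sequence composition and library, and these are descriptions. When expected levels were matched on the coverage of each site as well as on density, the mean ratios were -0.21, -0.15 and -0.10. Without the end windows of raised coverage, which left 26281 of the 96470 sites, DNMT3A2 stood at -0.30 (-0.44 to -0.15). With a minimum of 10 reads the 3 lines stood at -0.26, -0.24 and -0.14.

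**Figure D2:**
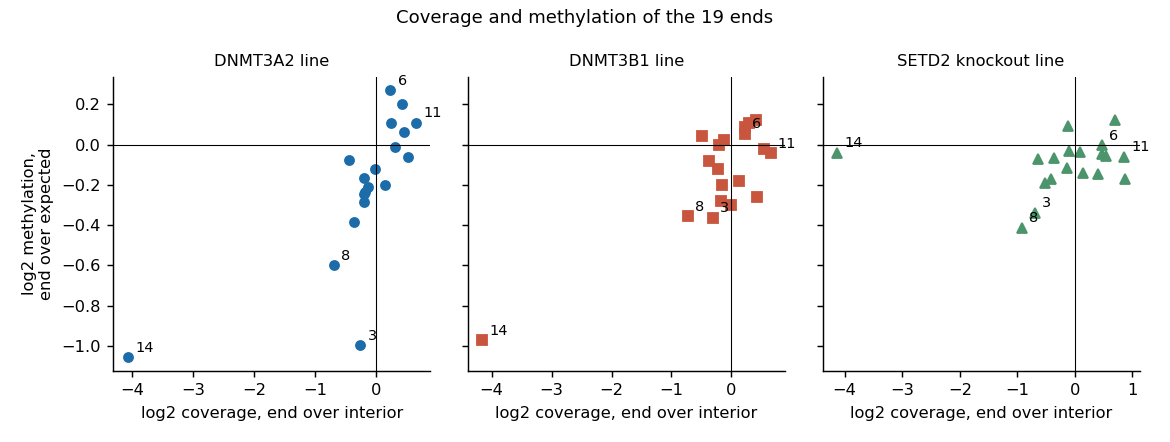
Log2 ratio of relative read coverage (matched on CpG density) in the end to that in the interior (x axis) against the log2 methylation ratio of the end to expected (y axis) for the 19 autosomes, in 1 panel per line. Chromosomes 3, 6, 8, 11 and 14 are numbered; in the DNMT3A2 panel none of the 11 autosomes left of 0 lies above 0.

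The profile along the ends gave the ratio by distance from the centromeric tip. In 20 steps of 100 kb, pooled over autosomes and set against the pooled interior, the DNMT3A2 level ran from 5.01% to 6.76%, the DNMT3B1 level from 1.95% to 2.85% and the knockout level from 4.33% to 5.66%. All 20 steps were below expected in the DNMT3A2 and knockout lines, and 18 were in the DNMT3B1 line. The 95% interval over CpG clusters lay below 0 in 14, 17 and 9 steps, and above 0 in none. The choice of reference mattered. With each autosome's own interior as reference, a comparison added after seeing the data, 12, 20 and 15 steps were below 0 and the interval lay below 0 in 4 steps for DNMT3A2, 11 for the knockout and 2 for DNMT3B1. It lay above 0 in 1 step for DNMT3A2, the seventeenth (0.14, 0.06 to 0.22), and in 1 for DNMT3B1, the eleventh (0.13, 0.01 to 0.26). The shallow deficit over most of the 2 Mb in the DNMT3A2 and DNMT3B1 lines thus depended on which interior stood for the expected level.

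For DNMT3A2 the lowest values under both references were nearest the tip, in the first and the third step. In the first 100 kb the DNMT3A2 level was 5.01%, with a log2 ratio of -0.49 (95% interval -0.67 to -0.31) against the pooled interior and -0.41 (-0.60 to -0.23) against the own interiors. In the third step it was -0.39 (-0.50 to -0.28) and -0.29 (-0.40 to -0.17). The knockout line was at -0.23 in the first step and -0.34 in the third, and at -0.20 and -0.29 with the own interiors. Its interval lay below 0 under both references in steps far from the tip as well, such as the last (-0.21 and -0.15). The DNMT3B1 line had 2.85% in the first 100 kb, its highest level in any step, and a ratio of 0.01 (-0.24 to 0.26). That ratio was -0.14 without chromosome 2 and -0.11 over the 2519 sites that did not need the knockout's listing, and 5 of the 9 autosomes with 50 or more sites were below expected, with a median of -0.23. A deficit of DNMT3B1 at the tip was thus not detectable at this depth. Its steps with intervals below 0 under both references were the eighth (-0.29 and -0.22) and the fifteenth (-0.37 and -0.27).

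DNMT3B1 and DNMT3A2 differed most in the first 100 kb. Relative to expected, DNMT3B1 exceeded DNMT3A2 there by 0.50 on the log2 scale (95% interval 0.21 to 0.78), a step singled out after its values were seen. In the other 19 steps that difference ran from -0.24 to 0.19, and of all 20 steps 3 had an interval above 0 and 2 below. The knockout exceeded DNMT3A2 by 0.26 (0.04 to 0.48) in the first step and differed from DNMT3B1 by -0.24 (-0.51 to 0.04). The knockout differed most from DNMT3B1 in the fifteenth step, by 0.26 (0.10 to 0.41). The first step is thinly covered: 9.94% of its CpGs could be compared, 49.7% had no read in the DNMT3A2 and DNMT3B1 lines, and 9 autosomes had 50 or more sites. On 7 of those 9 the DNMT3B1 ratio was above the DNMT3A2 ratio. Without chromosome 3 the difference was 0.44 (0.15 to 0.73), and without chromosomes 2 and 3 it was 0.44 (0.12 to 0.76). When sites no longer had to be listed for the knockout, 2519 sites instead of 1400 entered and the difference was 0.27 (0.03 to 0.51).

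Single autosomes varied widely in that first step. On chromosome 2, which gave 319 of the 1400 sites, levels were 7.66%, 4.01% and 5.53% in the DNMT3A2, DNMT3B1 and knockout lines. On chromosome 10 they were 6.78%, 3.60% and 7.04%, and on chromosome 17 they were 3.11%, 1.06% and 3.49%. On chromosome 3 they were 0.95%, 1.78% and 2.98%, so there DNMT3A2 was the lowest of the 3 lines.

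In steps of 1 Mb, both steps of the end were lower than each step from 5 to 10 Mb in every line. This profile was computed against the pooled interior alone, so the reach of a deficit under the own interiors was not tested. The log2 ratios against the pooled interior were -0.18, -0.14 and -0.16 at 3 to 4 Mb for DNMT3A2, DNMT3B1 and the knockout, and -0.10, -0.13 and -0.12 at 4 to 5 Mb. Between 5 and 10 Mb the lowest and highest 1 Mb steps were -0.07 and 0.01 in the DNMT3A2 line, -0.10 and -0.02 with DNMT3B1, and -0.07 and -0.01 in the knockout. Inside the interior itself the corresponding extremes were -0.16 and 0.17, -0.16 and 0.15, and -0.11 and 0.08. The first 1 Mb was therefore just outside that range for DNMT3A2, within it for DNMT3B1 and outside it for the knockout. The second 1 Mb was outside it in the knockout line alone, at -0.12 against -0.11. Over the 20 steps of 100 kb, the Spearman correlation of the ratio with distance was 0.59 for DNMT3A2, -0.22 for DNMT3B1 and 0.41 for the knockout, given as a description of 20 neighbouring steps in which coverage also rose with distance.

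The deficit was uneven over local CpG density. Here sites were pooled against each autosome's own interior, a weighting under which the ratios over all densities were -0.02, -0.05 and -0.09. Sites with 3 to 19 CpGs nearby, the bulk of the members, had log2 ratios between -0.06 and 0.045 for DNMT3A2 and between -0.06 and 0.03 for DNMT3B1. In the knockout line they lay between -0.10 and -0.03. At 10 to 14 CpGs the interval lay below 0 in all 3 lines, with ratios of -0.06, -0.06 and -0.10. At 7 to 9 CpGs it did so in the knockout line (-0.10, -0.14 to -0.06). Among denser sites the bins differed. At 20 to 29 CpGs the ratios were -0.09, 0.04 and -0.11 for DNMT3A2, DNMT3B1 and the knockout, and at 40 to 59 CpGs they were -0.36 (-0.75 to 0.03), -0.11 (-0.54 to 0.33) and 0.04 (-0.23 to 0.31). At 60 or more CpGs, the density of CpG islands, DNMT3A2 methylated 0.147% of reads against 0.236% expected, a log2 ratio of -0.69 (95% interval -1.12 to -0.26) over 9505 sites. DNMT3B1 had 0.124% against 0.177% (-0.51, -0.88 to -0.15) and the knockout 0.386% against 0.454% (-0.23, -0.44 to -0.03). Leaving out any 1 autosome kept these between -0.79 and -0.56, between -0.61 and -0.25, and between -0.31 and -0.11. These levels lie below the 0.210%, 0.153% and 0.463% found at that density over all autosomes, which served as the background in an alternative, so the ratios of this bin compare values at background. Subtracting that background left the mean end ratios at -0.21, -0.16 and -0.11. At 30 to 39 CpGs the deficit was largest for DNMT3B1, with 0.88% against 1.55% (-0.81, -1.09 to -0.54), below expected on 16 of 18 autosomes. There DNMT3A2 stood at -0.19 (-0.42 to 0.05) and the knockout at -0.32 (-0.53 to -0.12). The difference between lines within this bin was not tested. The only bin clearly above expected was that of 1 or 2 CpGs for DNMT3A2, with 5.17% against 4.39% (0.24, 0.04 to 0.43), and leaving out chromosome 11 brought it to 0.005.

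**Figure D3:**
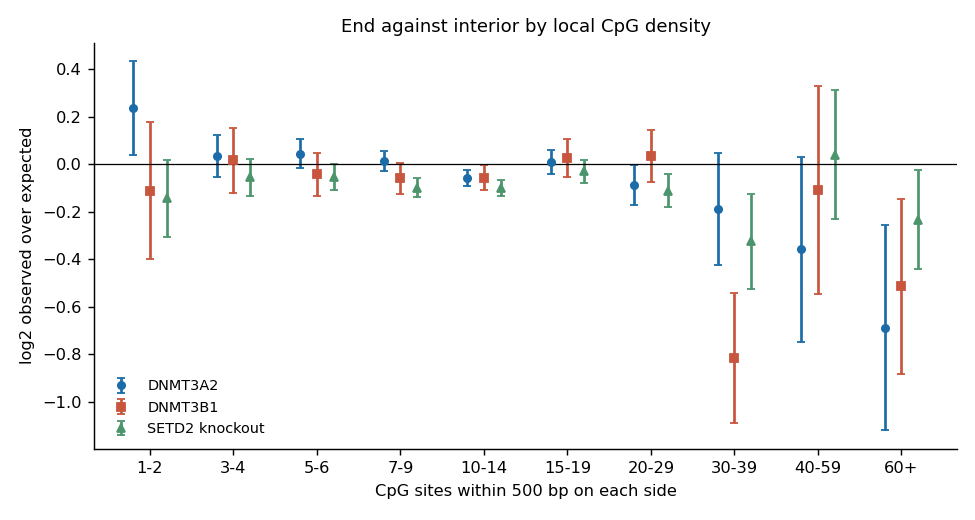
Log2 ratio of observed to expected methylation in the ends (y axis) by the number of CpG sites within 500 bp on each side (x axis) for the 3 lines. Bars are 95% intervals over CpG clusters. Ratios lie between -0.10 and 0.045 from 3 to 19 CpGs, and DNMT3B1 stands at 0.04 at 20 to 29 CpGs and falls to -0.81 at 30 to 39 CpGs.

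Single sites were compared as well. Among sites with 10 to 15 reads, the share without any methylated read was 67.4% in the DNMT3A2 line (exact 95% interval 66.9 to 67.9) against 65.8% expected at the density of those sites. It was 86.0% against 85.2% for DNMT3B1 and 73.6% against 71.9% for the knockout. Sites with at least 50% methylated reads made up 1.42% against 1.53%, 0.334% against 0.428%, and 1.42% against 1.70%. The interval of the DNMT3A2 share, 1.3 to 1.55, includes its expected value, while those of DNMT3B1 (0.277 to 0.401) and the knockout (1.31 to 1.55) do not. Sites near each other share reads, so these intervals are too narrow. Expected shares came from the interior pooled over autosomes, not from each autosome's own interior.

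In windows of 100 kb the ends were set against windows along all autosomes. A window needed 50 sites, which 297 of 380 end windows had. The 83 others were left out, among them every window of chromosome 14 and all but 4 of chromosome 3. Expected levels came here from all autosomes outside the ends. A window was counted when its level was at least 25% higher or 20% lower than expected, with an interval over CpG clusters that excluded no difference. In the DNMT3A2 line 83 end windows (27.9%) were lower, against 20.3% of all 18929 autosomal windows, and 5 (1.68%) were higher, against 9.45%. In the DNMT3B1 line 45 (15.2%) were lower, against 9.83%, and 5 (1.68%) were higher, against 7.37%. In the knockout line 57 (19.2%) were lower, against 8.26%, and 4 (1.35%) were higher, against 5.9%. The interior, counted the same way over 1357 windows, was itself lower than the rest, with 23.7%, 10.3% and 9.43% of windows lower. The median end window stood at -0.26, -0.23 and -0.18 on the log2 scale, the median interior window at -0.17, -0.14 and -0.08, and the median of all windows at -0.09, -0.07 and -0.02. All 3 lines were lower together in 15 of the 297 end windows and in 314 of all 18929. None of the end windows was higher in all 3 lines, while 262 of all windows were.

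Differences between lines in end windows occurred about as often as elsewhere. DNMT3B1 was higher relative to DNMT3A2 in 19 end windows (6.40%, against 7.97% of all windows) and lower in 15 (5.05%, against 5.76%). The knockout was higher relative to DNMT3B1 in 18 (6.06%, against 6.17%) and lower in 14 (4.71%, against 5.14%). The knockout was higher relative to DNMT3A2 in 20 (6.73%, against 9.6%) and lower in 10 (3.37%, against 3.5%). The median difference over the end windows was 0.04, 0.01 and 0.06 for these contrasts, beside 0.02, 0.05 and 0.06 over all windows. The DNMT3B1 level itself exceeded the DNMT3A2 level in 7 of 297 end windows (2.36%) and in 2.69% of the other windows. Window ratios of 2 lines correlated less within the ends than elsewhere as a description. Pearson's r between DNMT3A2 and DNMT3B1 was 0.38 over 297 end windows and 0.46 over 18632 others, and between DNMT3A2 and the knockout it was 0.42 and 0.52.

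Over segments of 2 Mb, 18 ends had the 500 sites required, all but that of chromosome 14, and 1158 other segments served for comparison. The median end lay at percentile 33.3 of the other segments for DNMT3A2, 25.6 for DNMT3B1 and 17.7 for the knockout. The ends lay below the median of the other segments in 16, 17 and 17 of 18 cases. In the knockout line 16 of the 18 ends were among the lowest 25% of the others, in the DNMT3B1 line 9 and in the DNMT3A2 line 6. For the contrasts between lines the median end was at percentiles 49.3, 50.6 and 55.4, near the middle. Chromosome-wide differences in level enter these percentiles, since expected levels came from all autosomes.

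The 3 lowest DNMT3A2 windows lay within 300 kb of the first assembled base. The lowest was chr3:3000001-3100000, with 146 sites in 81 clusters of CpGs. It had 23 methylated of 2415 reads in the DNMT3A2 line (0.95%, exact 95% interval 0.60 to 1.43), 44 of 2473 in the DNMT3B1 line (1.78%) and 81 of 2718 in the knockout line (2.98%). Against the expected level the DNMT3A2 line stood at -2.85 on the log2 scale (-3.69 to -2.01), the DNMT3B1 line at -0.77 and the knockout at -1.18. DNMT3A2 ranked 35 from the lowest of 18929 windows there, and DNMT3B1 ranked 1669. The difference of DNMT3B1 from DNMT3A2 was 2.08 (0.96 to 3.21), the largest among end windows. The 146 sites compared, each with at least 5 reads in every line, had a median of 15.5 reads in the DNMT3A2 line. The DNMT3A2 median over all covered sites of the series was 9, and the relative coverage of the window was 0.97. At the 94 sites with at most 2 times the series median the DNMT3A2 level was 1.56%. That of DNMT3B1, over 80 such sites, was 1.59%. These 2 levels come from different sets of sites, and the 6.88% and 3.03% expected are those of all 146 sites. Both levels lay below them, that of DNMT3A2 further. The difference between the lines relative to expected was not computed for sites of that coverage.

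The next windows of chromosome 3 were low for DNMT3A2 too. The window chr3:3200001-3300000 had 1.46%, 2.39% and 4.44% in the DNMT3A2, DNMT3B1 and knockout lines, with a DNMT3A2 log2 ratio of -2.40 (-3.44 to -1.37). The window chr3:3300001-3400000 had 2.44%, 0.65% and 7.05%, and was the lowest end window of the DNMT3B1 line at -2.22 (-4.01 to -0.43), from 5 methylated of 765 reads. There the knockout stood at 0.10, 2.32 above DNMT3B1 (0.38 to 4.26), the largest such difference in the ends. In all 4 windows of chromosome 3 with 50 sites the knockout level exceeded the DNMT3A2 level, which happened in 31.3% of end windows and 30.1% of others. The third lowest DNMT3A2 window was chr16:3200001-3300000, with 2.21%, 1.64% and 3.70% and log2 ratios of -1.67, -0.91 and -0.88. All 3 lines were low there at a relative coverage of 1.66.

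**Figure D4:**
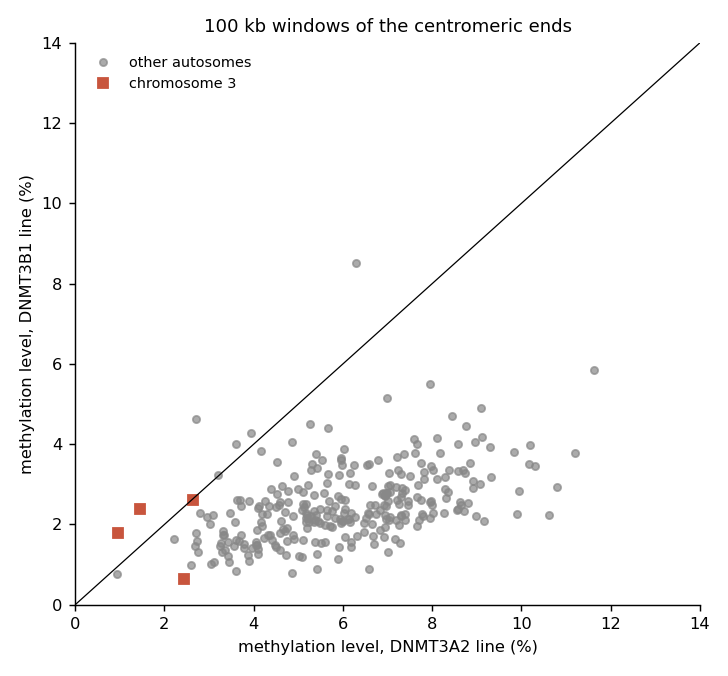
Methylation level of the DNMT3A2 line (x axis, %) against that of the DNMT3B1 line (y axis, %) in the 297 end windows of 100 kb, with the 4 windows of chromosome 3 as squares and the line of equal levels drawn. Most windows lie below the line; 7 lie above it, 2 of them on chromosome 3.

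The highest DNMT3A2 windows departed less from expected than the lowest. They were chr6:4700001-4800000, with 10.8% of reads methylated over 423 sites (log2 ratio 0.56, 0.29 to 0.83), chr1:4900001-5000000 with 10.6% (0.46) and chr19:4500001-4600000 with 8.26% (0.38). DNMT3B1 was not raised in them, at 0.01, -0.50 and -0.14. In the DNMT3B1 line the highest was chr18:3100001-3200000, where 71 of 833 reads (8.52%, 6.72 to 10.6) were methylated, 1.39 above expected on the log2 scale (0.75 to 2.03). DNMT3A2 had 6.30% and the knockout 8.22% there, so DNMT3B1 exceeded DNMT3A2 in that window. It adjoins chr18:3000001-3100000, the second lowest DNMT3B1 window, with 0.79% (7 of 887 reads, -1.89). The other high DNMT3B1 windows were chr9:4200001-4300000 with 4.39% (0.78) and chr13:3500001-3600000 with 4.12% (0.64), and the third lowest was chr15:3300001-3400000 with 0.90% (-1.81).

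The knockout line had its lowest windows at chr13:4200001-4300000 (2.86%, -1.25), the first window of chromosome 3 and chr17:3700001-3800000 (3.13%, -1.13). In the window of chromosome 17 the DNMT3A2 and DNMT3B1 lines were at 9.11% and 4.19%, above their expected levels, and the knockout was 1.57 below DNMT3B1 on the log2 scale of relative levels (-2.81 to -0.33). The highest knockout windows were chr18:3800001-3900000 (10.6%, 0.69), chr9:3800001-3900000 (10.3%, 0.65) and chr12:3100001-3200000 (9.60%, 0.54).

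Among windows whose interval excluded no difference, the 3 in which DNMT3B1 was lowest relative to DNMT3A2 lay in the second 1 Mb of the stretch. The lowest of these contrasts, -1.04 (-1.84 to -0.23), was in chr12:4400001-4500000, with 5.90% for DNMT3A2 and 1.15% for DNMT3B1 over 378 sites with a mean of 44.0 CpGs nearby. The window chr1:4900001-5000000 followed at -0.96 and chr7:4700001-4800000 at -0.73, the last with 903 sites and levels of 3.59%, 0.84% and 2.65%. Some windows with intervals that included 0 had lower values of this contrast, also in the first 1 Mb. Among them were chr15:3300001-3400000 (-1.56, -3.35 to 0.23), chr10:4200001-4300000 (-1.29, -3.03 to 0.45) and chr18:3000001-3100000 (-1.19, -2.79 to 0.41). After the windows of chromosome 3, this contrast was highest in chr9:3500001-3600000, with 2.70% for DNMT3A2 and 4.63% for DNMT3B1 (1.94, 0.72 to 3.15). The knockout was 1.47 below DNMT3B1 there. Further windows in which the knockout departed from DNMT3B1 were chr13:4000001-4100000 at -1.31, chr18:3000001-3100000 at 1.93 and chr10:4200001-4300000 at 1.81. Against DNMT3A2 it was lowest at chr17:4800001-4900000 (-0.62) and chr11:4400001-4500000 (-0.48), after the window of chromosome 17 named above. Few methylated reads stand behind several of these values, such as 6 of 676 for DNMT3B1 on chromosome 10.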

How the data were processed

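CpG methylation was measured by bisulfite sequencing in 6 samples, 2 runs of each of 3 lines. For DNMT3A2 and DNMT3B1, the deposited series table holds total reads at a site (coverage, both strands summed) and the count of methylated reads, per the file headers. The deposited knockout table gives the same coverage and count, listing 9293499 sites with 10 or more reads, so 5 reads in all lines meant 10 in the knockout. 2 knockout files were identical and used once. Positions are in mm9, per the submitters' processing notes. Which aligner and caller were used, and how duplicates and multiply mapped reads were handled, is not given in the sources used here. No mm9 genome or annotation was used, so windows carry no sequence and no gene names. The DNMT3A2 and DNMT3B1 libraries held 200364080 and 188661576 reads over the 20782144 CpG sites of the series. The knockout total of 200947834 reads covers its 9293499 listed sites alone and leaves out sites under 10 reads. The depth of the knockout library therefore cannot be compared with the others from these totals. In the relative coverage of the knockout line, sites missing from its table counted as having no reads.

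Levels are methylated over all reads, with exact (Clopper-Pearson) 95% intervals. Expected levels are those of the reference at the same CpG density. Intervals of ratios use a ratio estimator over 500 bp clusters. A line with under 3 methylated reads in a window was set to 3. Named windows were the 3 highest and 3 lowest in each line and contrast with 50 sites, 500 reads in every line and an interval excluding no difference. Named autosomes were the 3 highest and 3 lowest per line. The members, lists and comparisons were chosen with earlier results of these data known. Analyses used Python 3.11.15, numpy 2.4.6, pandas 2.3.3 and scipy 1.17.1.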

Additional observations from a re-analysis of the deposited data

Results flagged for a closer look

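Signal was present in sites that the comparisons above did not use. Of 1115 sites of the ends above the coverage maximum in a line, 1066 had 5 or more reads in all 3 lines. They lay on 17 autosomes, and 630 of them were on chromosome 11. Their level was 7.55% in the DNMT3A2 line (exact 95% interval 7.46 to 7.63), 2.49% for DNMT3B1 and 6.08% for the knockout, each above that of the sites compared. These levels were not matched on CpG density. In the DNMT3A2 line 384446 reads fell on the 1066 sites, so many reads share a site and the exact interval is too narrow. The reason for such coverage was not tested. The first 2 Mb of the X chromosome had 142 sites with enough reads. Their level was 2.28% in the DNMT3A2 line (1.70 to 2.98), 1.41% with DNMT3B1 (0.93 to 2.04) and 4.32% in the knockout (3.59 to 5.14). At 10 to 20 Mb of the X chromosome the levels were 6.76%, 2.01% and 5.31%, higher in each line, without matching on density. In the end of the X chromosome the knockout had the highest level of the 3 lines.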

How the results depend on the processing

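The mean end over interior ratio stayed below 0 in every line under each of 19 alternatives run for DNMT3A2 and DNMT3B1 and 18 for the knockout, from -0.31 to -0.02, from -0.24 to -0.04 and from -0.18 to -0.08, and its interval excluded 0 in 18, 15 and 18 of them. For DNMT3A2 and DNMT3B1, leaving out the most extreme autosome and leaving out autosomes under 500 sites both dropped chromosome 14. Those 2 alternatives are therefore the same there and count as 1. The interval reached 0 with a coverage maximum of 2 times the median (-0.14 for DNMT3A2, -0.043 for DNMT3B1), and for DNMT3B1 in the second 1 Mb alone (-0.12), without end windows of raised coverage (-0.045) and, an alternative chosen after seeing the data like the other alternatives said to be added, with sites required in the DNMT3A2 and DNMT3B1 lines alone (-0.12). The contrasts gained an interval excluding 0 without windows of raised coverage (0.25 for DNMT3B1 over DNMT3A2, 0.19 for the knockout over DNMT3A2) and, for the latter, against the whole autosome (0.14). Leaving out windows of raised coverage kept 26281 of the 96470 end sites. Pooling over autosomes turned the knockout contrasts to -0.039 against DNMT3B1 and -0.062 against DNMT3A2; pooling weights autosomes by reads. Steps with an interval below 0 fell from 14, 9 and 17 to 4, 2 and 11 for DNMT3A2, DNMT3B1 and the knockout with each autosome's own interior. The share of end windows lower than expected stayed above that of all windows in all 3 lines under all 5 alternatives. At a 1.5-fold threshold it moved over 1.5 times, to 16.5% for DNMT3A2 (14.1% of all windows) and 8.08% for the knockout (3.47%). The small shares of higher windows moved most, and here the share of all windows follows each in parentheses. For DNMT3A2 they were 0% (1.38%) at 1.5-fold, 2.93% (11.9%) in 50 kb windows and 0.565% (6.37%) in 200 kb windows. At a minimum of 10 reads the DNMT3A2 share was 1.10% (11.4%), and without matching 3.70% (18.7%). For DNMT3B1 they were 1.01% (2.72%) at 1.5-fold, 2.93% (7.93%) in 50 kb windows, 0.552% (7.74%) at 10 reads and 3.37% (12.4%) without matching. For the knockout they were 0.673% (0.497%) at 1.5-fold, 0.552% (7.28%) at 10 reads and 6.06% (18.7%) without matching. The knockout share at 1.5-fold, from 2 of 297 end windows, was thus above that of all windows. For DNMT3B1 minus DNMT3A2 the higher share was 11.3% (9.13%) in 200 kb windows, there above that of all windows. Its lower share was 2.69% (2.99%) at 1.5-fold and 2.82% (4.53%) in 200 kb windows. For the knockout minus DNMT3B1 the higher share was 3.39% (5.40%) in 200 kb windows and 2.21% (6.33%) at 10 reads, and the lower share 2.76% (5.05%) at 10 reads. For the knockout minus DNMT3A2 the higher share was 10.2% (13.7%) in 200 kb windows and 3.87% (5.98%) at 10 reads. Its lower share was 0.673% (0.755%) at 1.5-fold and 1.13% (1.85%) in 200 kb windows. Where no value shows it, the cause was not tested. Matching on coverage, leaving out autosomes under 500 sites, and the values without chromosomes 2, 3 and 11 or for 2519 sites were added after seeing the data. No paired analysis was possible because the deposited values give 1 set of columns per line, with no column per run, and the lines share no numbered replicates. Depth limits the first steps and chromosomes 3 and 14 most, and 1 library per line leaves the spread between cultures unknown.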
